A study of Homo sapiens with 6 samples.

Results

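The genes described here run the mechanics of cell division: the kinases and cyclins that start mitosis, the kinetochore and its checkpoint, the spindle, cohesin and condensin, and cytokinesis. The genes were chosen by symbol, with kinesins left out. The list held 60 names for 59 genes, since SGOL1 is the older symbol of SGO1. The array annotation gives 44 of these a probe set, 1 each, out of 14812 named genes in all. The other 15 (NUF2, SPC24, SPC25, CENPE, CENPF, ZWILCH, TPX2, ASPM, DLGAP5, ANLN, NCAPD2, NCAPG, NCAPG2, NCAPH and UBE2C) were not analysed here.

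The samples were cultures of LS180, an established human colorectal adenocarcinoma cell line. They were transfected with an siRNA that targets CTNNB1, which encodes the Wnt effector beta-catenin, or MYC, which encodes a transcription factor, or MYU (VPS9D1-AS1), a long non-coding RNA. Each knockdown had 1 Affymetrix array and 1 control siRNA array named for it in its title, so 6 arrays formed 3 pairs. No source used here gives the time after transfection or the siRNA sequences.

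Each value below is a log2 difference, the knockdown array minus the control array of its pair. The deposited values were centred within each pair, so expression levels are not in them and the cell line's identity could not be checked against marker levels. Since each side of a pair is 1 array, differences are unreplicated and carry no p-value. "Higher" and "lower" describe these arrays only, and their number limits the precision. MYC itself had values of -2.38, -1.18 and 0.04 across the CTNNB1, MYC and MYU pairs, and VPS9D1-AS1 had -0.53, -0.24 and -0.50. CTNNB1 has no listed probe set, so that knockdown has no direct check, and the treatment tag of its array names CTNNB2 where the title gives CTNNB1. Both the control for CTNNB1 and the control for MYC are numbered 1 in their titles, and it is not known whether they are 1 hybridisation. For this reason no agreement between those pairs is counted as a result. Of the epithelial markers, 7 of 8 were measured, and their median was 0.62, 0.09 and 0.07 across the CTNNB1, MYC and MYU pairs. In the CTNNB1 pair 4 of the 7 were at least 1.5-fold higher and 2 at least 2-fold, against 6.44% and 2.80% of all genes. KRT20 was highest there at 4.39 and stood at 1.16 in the MYC pair (named after its values were seen). Below 0 were 1, 3 and 2 of the 7 across the CTNNB1, MYC and MYU pairs, against 48.9%, 49.4% and 48.3% of all genes. Their lowest values were -0.42, -0.40 and -0.73 in the same order. Of the leukocyte markers 1 of 5 was measured and of the fibroblast markers 3 of 6, all within 2-fold except LUM at 2.78 in the CTNNB1 pair.

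Entry into mitosis depends on cyclin A and cyclin B bound to CDK1, which CDC25 phosphatases switch on and Polo-like and Aurora kinases help to spread. Kinetochores built on the centromere then bind spindle microtubules, and a checkpoint holds the anaphase-promoting complex (APC/C) until every kinetochore is attached. Most of these genes are transcribed late in the cycle. Their promoters are known for a cell cycle genes homology region (CHR), which the DREAM complex and the MYB-MuvB and FOXM1 complexes bind, and for CCAAT boxes, which NF-Y binds.

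Start windows of 6 members show these elements, chosen as the 3 lowest in the CTNNB1 pair and the 3 nearest to 0 there that have an entry in the RefSeq table of build GRCh38.p14. Each is printed from 250 bases before the annotated gene start to 10 bases after it, 5′ to 3′ on the gene's strand. Where a gene has several starts, the first listed was taken. Capitals mark exact matches on either strand to TTTGAA (the CHR), TTCGAA (a CHR variant), CCAAT, the E-box CACGTG, the E2F forms TTTGGCGC and TTTCCCGC, and the TCF/LEF form CTTTGAT. The last shares the letters TTTGA with the CHR. On the opposite strand CCAAT reads ATTGG and the CHR reads TTCAAA in these lines.
CCNA2, chr4:121823874-121824133, minus strand: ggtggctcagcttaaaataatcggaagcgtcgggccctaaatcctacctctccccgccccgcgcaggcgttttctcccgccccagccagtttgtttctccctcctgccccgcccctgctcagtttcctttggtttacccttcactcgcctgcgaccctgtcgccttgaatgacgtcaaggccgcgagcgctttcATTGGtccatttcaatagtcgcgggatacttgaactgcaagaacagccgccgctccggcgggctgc
SGO1, chr3:20186197-20186456, minus strand: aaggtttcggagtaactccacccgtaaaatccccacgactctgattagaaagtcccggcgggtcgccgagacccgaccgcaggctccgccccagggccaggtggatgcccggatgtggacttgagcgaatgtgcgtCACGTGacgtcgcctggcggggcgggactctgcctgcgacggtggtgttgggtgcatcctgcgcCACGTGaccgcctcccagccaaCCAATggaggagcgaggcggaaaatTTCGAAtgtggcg
TOP2A, chr17:40417887-40418146, minus strand: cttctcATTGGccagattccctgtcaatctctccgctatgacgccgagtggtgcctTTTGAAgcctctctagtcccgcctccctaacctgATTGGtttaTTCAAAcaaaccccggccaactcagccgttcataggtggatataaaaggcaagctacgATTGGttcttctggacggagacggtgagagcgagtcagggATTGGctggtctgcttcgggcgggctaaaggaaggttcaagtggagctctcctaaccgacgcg
PTTG1, chr5:160421605-160421864, plus strand: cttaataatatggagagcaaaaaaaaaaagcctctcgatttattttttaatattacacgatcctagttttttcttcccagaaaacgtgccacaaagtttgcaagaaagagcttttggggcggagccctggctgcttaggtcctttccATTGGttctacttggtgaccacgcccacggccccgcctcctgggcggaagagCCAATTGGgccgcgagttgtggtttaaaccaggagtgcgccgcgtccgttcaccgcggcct
ESPL1, chr12:53268049-53268308, plus strand: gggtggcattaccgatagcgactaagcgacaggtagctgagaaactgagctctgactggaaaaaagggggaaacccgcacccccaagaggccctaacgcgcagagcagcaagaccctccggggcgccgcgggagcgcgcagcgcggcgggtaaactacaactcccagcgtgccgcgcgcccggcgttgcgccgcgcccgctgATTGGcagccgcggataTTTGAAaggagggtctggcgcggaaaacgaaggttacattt
CDC25B, chr20:3786701-3786960, plus strand: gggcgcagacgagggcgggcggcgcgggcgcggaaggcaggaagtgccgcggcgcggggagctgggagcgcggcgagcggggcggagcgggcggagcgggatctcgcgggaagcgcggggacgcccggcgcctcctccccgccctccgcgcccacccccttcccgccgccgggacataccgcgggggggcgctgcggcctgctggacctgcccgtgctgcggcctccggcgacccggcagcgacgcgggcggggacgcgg

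TOP2A holds 4 CCAAT boxes, all on the opposite strand, and 2 CHR matches. SGO1 holds 2 E-boxes, 1 CCAAT box and a CHR variant that begins 3 bases before the start. In ESPL1 a CCAAT box begins 48 bases before the start and a CHR match 31 bases before it. Of the exact forms searched, CCNA2 has 1 CCAAT box and PTTG1 has 3 CCAAT matches, 2 of them overlapping. Any other form of a CHR in these windows, that of CCNA2 included, would be left unmarked. The CDC25B window printed holds none of the 7 motifs, while 1 of this gene's 4 listed windows holds TTCGAA and 2 hold CCAAT.

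Taking the first listed window of 300 bases for each gene, 38 of the 44 members had an entry. TTTGAA was in 23 of them (60.5%), against 12.0% of 15804 other protein-coding genes. TTCGAA was in 15.8% of members and 1.54% of the others, and CCAAT in 65.8% of members and 36.3% of the others. A CHR of either form together with a CCAAT box was in 19 members (50%), against 5.47% of the others. The canonical E-box was about as frequent in members (10.5%) as in the others (8.88%). TTTGGCGC was in 2 members (5.26%) and in 0.880% of the others, TTTCCCGC in 1 member (2.63%) and in 2.18% of the others, and CTTTGAT in 0 members and in 1.95% of the others. In percentage points, the gap between members and other genes was widest for TTTGAA. When any listed window of a gene counted, TTTGAA was in 65.8% of members and 15.9% of all coding genes. These are matches of letters, not shown binding sites.

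**Figure D1:**
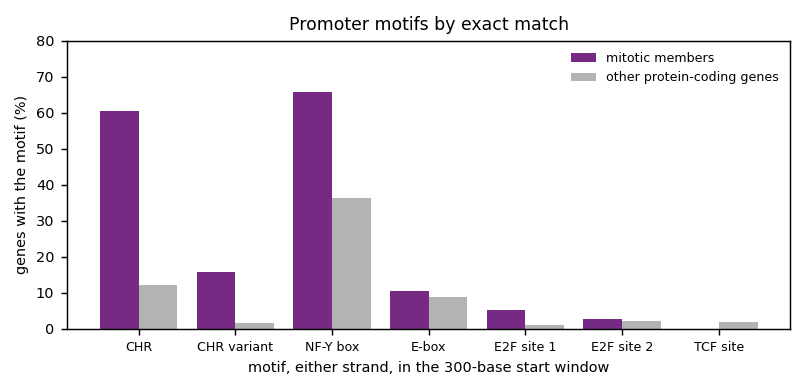
Share of genes (%, bars from 0) whose first listed start window holds each motif, for 38 mitotic members (left bar of each pair) and 15804 other protein-coding genes (right bar). The CHR stands at 60.5% of members and 12.0% of other genes, and the box bound by NF-Y at 65.8% and 36.3%.

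In the CTNNB1 pair mitotic genes were lower in the knockdown array, most of them by at least 2-fold. All 44 members were below 0, against 48.9% of all genes, and 36 were at least 2-fold lower, against 4.14% of all genes. At 1.5-fold 41 were lower, against 9.8% of all genes, and 0 were 1.5-fold higher, against 6.44%. The median was -1.47, or 2.76-fold lower, where the median of all genes was 0. Of the 44, 29 lay below -1.26, among the lowest 2.5 percent of all genes. The lowest member was CCNA2, the cyclin A gene, with centred values of -1.14 in the CTNNB1 siRNA array and 1.14 in its control, a difference of -2.28. It ranked 12th from the lowest of 14812 genes. As the RNA came from whole cultures, fewer dividing cells and less of these RNAs per cell cannot be told apart.

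In the MYC pair 44 of 44 members were below 0, against 49.4% of all genes. The median was -0.57 (1.48-fold lower). Of the 44, 17 lay below -0.66, among the lowest 2.5 percent of all genes in this pair. At least 2-fold lower were 3 members, against 0.446% of all genes, and 21 were at least 1.5-fold lower, against 3.63%. The first were CDC25A (-1.13), CENPN (-1.07) and SKA3 (-1.01), with CCNA2 (-0.99) and AURKB (-0.96) just outside. At 1.5-fold 0 members were higher, against 2.15% of all genes.

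In the MYU pair differences were smaller still, for the members and for all genes. The standard deviation over all genes was 0.51, 0.28 and 0.20 across the CTNNB1, MYC and MYU pairs. Medians and fold counts therefore do not compare the pairs on a common scale. Below -0.46, among the lowest 2.5 percent of all genes in the MYU pair, were 10 members. Of the 44 members 39 were below 0, against 48.3% of all genes, with a median of -0.28 (1.22-fold lower). At 2-fold 0 members were lower, against 0.0945% of all genes, and 6 were at least 1.5-fold lower, against 1.21%. These were CDC25B, KNTC1, TRIP13, MASTL, NUSAP1 and SHCBP1. Above 0 were 5 members, CDK1, CDCA8, RACGAP1, PLK1 and ECT2, so that 0 were 1.5-fold higher, against 0.668% of all genes.

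**Figure D2:**
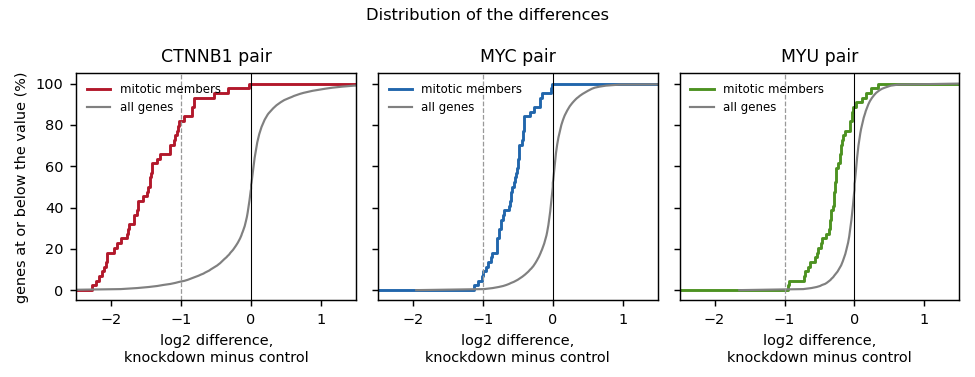
Cumulative share (%) of the 44 mitotic members (coloured steps) and of all 14812 genes (grey) by log2 difference, knockdown minus control, in each pair. The dashed line marks 2-fold lower and the axis is limited to the members' side of the range. The members' medians are -1.47, -0.57 and -0.28 across the CTNNB1, MYC and MYU pairs, while all genes centre on 0. All genes spread less widely in the MYC and MYU pairs than in the CTNNB1 pair.

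The 11 genes of mitotic entry had medians of -1.61, -0.54 and -0.26 across the CTNNB1, MYC and MYU pairs. CDK1, the central mitotic kinase, had centred values of -0.98 in the CTNNB1 siRNA array and 0.98 in its control, a difference of -1.96. It was at -0.54 with MYC siRNA and at 0.33 with MYU siRNA, where it was the highest member. The B-type cyclin genes followed the same order of pairs but stayed below 0 in each. CCNB1 had values of -1.77, -0.41 and -0.19 across the CTNNB1, MYC and MYU pairs. CCNB2 had -1.42, -0.48 and -0.26.

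The 3 CDC25 phosphatase genes, whose products remove the inhibitory phosphates from cyclin-dependent kinases, differed among themselves. CDC25A, which also acts at entry into S phase, had values of -1.61, -1.13 and -0.31 across the CTNNB1, MYC and MYU pairs and was the lowest member in the MYC pair. CDC25C had -1.16, -0.50 and -0.21. CDC25B had -0.81, -0.01 and -0.95, and so stood at the 45.7th percentile of all genes in the MYC pair but at percentile 0.122 in the MYU pair. In that pair CDC25B was the lowest of the members, with a centred value of -0.47 in the MYU siRNA array and 0.47 in its control, or 1.93-fold lower.

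PLK1, the Polo-like kinase of spindle assembly and mitotic exit, had values of -1.61, -0.72 and 0.11 across the CTNNB1, MYC and MYU pairs. AURKA, the Aurora kinase of the spindle poles, had smaller values of -0.85, -0.48 and -0.19. MASTL, the Greatwall kinase that holds back the phosphatase PP2A-B55 during mitosis, had -1.31, -0.74 and -0.70. MELK, a kinase gene expressed in dividing cells, had -1.68, -0.74 and -0.53. MASTL thus differed by nearly as much in the MYU pair as in the MYC pair, while PLK1 did not.

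The chromosomal passenger complex, which corrects faulty attachments and later acts at the midzone, was uneven. Its kinase gene AURKB had values of -2.10, -0.96 and -0.24 across the CTNNB1, MYC and MYU pairs. The other subunits were nearer to 0 in the CTNNB1 pair. CDCA8, which encodes borealin, had -1.05, -0.55 and 0.24. The scaffold gene INCENP had -0.95, -0.42 and -0.29, and the survivin gene BIRC5 had -0.82, -0.42 and -0.35. In the CTNNB1 pair 2 of these 4 were at least 2-fold lower, against 4.14% of all genes.

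**Figure D3:**
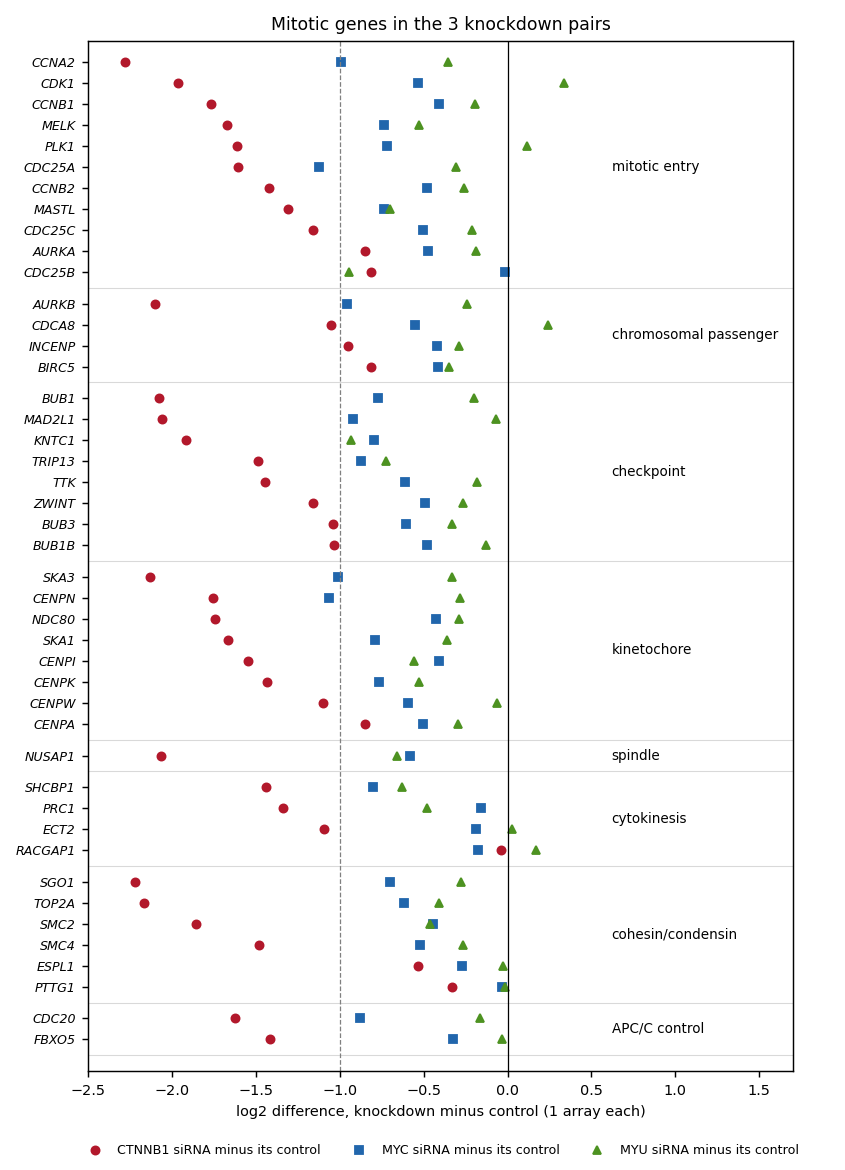
Log2 difference, knockdown minus control, of all 44 mitotic members (rows, grouped by role and sorted by the CTNNB1 pair) in the CTNNB1 (circles), MYC (squares) and MYU (triangles) pairs, 1 array on either side. The dashed line marks 2-fold lower. Every circle and square lies below 0, from CCNA2 at -2.28 to RACGAP1 at -0.04 for the circles, and 5 triangles lie above 0.

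Kinetochore, checkpoint, cohesin and condensin, and cytokinesis genes were compared as groups. In the CTNNB1 pair their medians were -1.61 (8 measured of 13 listed), -1.47 (8 of 9), -1.67 (6 of 10) and -1.22 (4 of 5). In the MYC pair the medians were -0.68, -0.69, -0.48 and -0.18 in the same order, and in the MYU pair -0.31, -0.24, -0.27 and -0.23. The cohesin and condensin group holds no gene of the cohesin ring. The ring and loader genes, followed as a list, had a median of -0.30 in the CTNNB1 pair. The ranges of the groups overlapped in every pair, and no test of the differences between groups was possible.

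Of the 8 kinetochore genes 7 were at least 2-fold lower with CTNNB1 siRNA, 2 with MYC siRNA and 0 with MYU siRNA, against 4.14%, 0.446% and 0.0945% of all genes. The SKA complex, which keeps kinetochores attached to the ends of microtubules, held the lowest gene of the group in the CTNNB1 pair. SKA3 had values of -2.13, -1.01 and -0.33 across the CTNNB1, MYC and MYU pairs. SKA1 had -1.67, -0.79 and -0.36. NDC80, the main microtubule-binding component, had -1.74, -0.43 and -0.29.

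Further genes belong to the inner kinetochore, which sits on centromeric chromatin. CENPN, whose product reads the centromeric histone, had values of -1.76, -1.07 and -0.28 across the CTNNB1, MYC and MYU pairs. CENPI had -1.55, -0.41 and -0.56, and CENPK had -1.43, -0.76 and -0.53. CENPI was thus lower in the MYU than in the MYC pair, the opposite of CENPN. CENPW had -1.10, -0.60 and -0.06. CENPA, the gene of the centromeric histone itself, had the value nearest to 0 of the group in the CTNNB1 pair (-0.85), and -0.51 and -0.30 in the MYC and MYU pairs.

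All 8 checkpoint genes measured were at least 2-fold lower in the CTNNB1 pair, against 4.14% of all genes, and 6 were at least 1.5-fold lower in the MYC pair, against 3.63%. BUB1, a kinase that recruits the checkpoint to kinetochores, had values of -2.08, -0.77 and -0.20 across the CTNNB1, MYC and MYU pairs. MAD2L1, whose product binds and inhibits the APC/C activator, had -2.06, -0.92 and -0.07. TTK, the MPS1 kinase that starts the signal, had -1.45, -0.61 and -0.19. These had little difference in the MYU pair.

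Of the checkpoint genes 2, KNTC1 and TRIP13, were at least 1.5-fold lower in the MYU pair, against 1.21% of all genes. KNTC1, the ROD subunit of the complex that brings dynein and MAD proteins to kinetochores, had values of -1.92, -0.80 and -0.93 across the CTNNB1, MYC and MYU pairs. It lay at percentile 0.135 of all genes in the MYU pair. TRIP13, the ATPase that remodels MAD2, had -1.49, -0.87 and -0.73. Less far from 0 were ZWINT, a kinetochore linker (-1.16, -0.49 and -0.27), BUB3 (-1.04, -0.60 and -0.33) and BUB1B, the BubR1 gene (-1.04, -0.48 and -0.13).

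In the cohesin and condensin group 4 of the 6 measured genes were at least 2-fold lower in the CTNNB1 pair, against 4.14% of all genes. SGO1, the protector of centromeric cohesin, had values of -2.22, -0.70 and -0.28 across the CTNNB1, MYC and MYU pairs. TOP2A, the enzyme that untangles sister DNA, had -2.17, -0.62 and -0.41. The condensin subunit genes followed. SMC2 had values of -1.86, -0.44 and -0.46, and SMC4 had -1.48, -0.52 and -0.27.

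The other 2 lay nearer to 0. ESPL1, which encodes separase, the protease that cuts cohesin at anaphase, had values of -0.54, -0.27 and -0.03 across the CTNNB1, MYC and MYU pairs. PTTG1, which encodes its inhibitor securin, had -0.33, -0.03 and -0.02. PTTG1 has near-identical copies in the genome, so its probe set may also report these. ESPL1 and PTTG1 were 2 of the 3 members within 1.5-fold in the CTNNB1 pair. Their printed start windows hold CCAAT, as do those printed for the lowest members. CCAAT was also in 36.3% of other protein-coding genes, and its part in these values was not tested.

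Of the 4 groups, cytokinesis genes had the median nearest to 0 in all 3 pairs. In the MYU pair it was close to that of the checkpoint genes (-0.230 and -0.235). PRC1, which bundles midzone microtubules, had values of -1.34, -0.16 and -0.48 across the CTNNB1, MYC and MYU pairs. ECT2, the exchange factor that activates RhoA at the division plane, had -1.09, -0.19 and 0.02. RACGAP1, the subunit of the centralspindlin complex that binds ECT2, had -0.04, -0.18 and 0.17. The first was the value nearest to 0 of all members in the CTNNB1 pair. It has a pseudogene copy, which its probe set may also report. SHCBP1, whose product joins centralspindlin at the midbody, had -1.44, -0.80 and -0.63, and was lower in the MYC pair than the other 3.

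Of the spindle genes only NUSAP1, which binds and stabilises spindle microtubules, was measured, with values of -2.07, -0.58 and -0.66 across the CTNNB1, MYC and MYU pairs. Of the APC/C control genes, the activator CDC20 had -1.63, -0.88 and -0.17. FBXO5, which encodes the APC/C inhibitor EMI1, had -1.42, -0.33 and -0.03.

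Other genes of the same pathways were followed as lists. Of 17 measured regulators of mitotic transcription, 9 were at least 2-fold lower with CTNNB1 siRNA, 2 with MYC siRNA and 0 with MYU siRNA, against 4.14%, 0.446% and 0.0945% of all genes, with medians of -1.04, -0.52 and -0.29. RBL1, the p107 pocket protein, had values of -2.00, -1.24 and -0.84, and the repressor genes E2F7 and E2F8 had -1.83 and -1.80 in the CTNNB1 pair. Genes of the factors that act at the CHR were named after their values were seen. FOXM1 had -1.56, -0.62 and -0.40, and MYBL2 had -1.56, -1.02 and -0.44. The MuvB core subunit genes that DREAM and MYB-MuvB share ranged widely in the CTNNB1 pair, with LIN9 at -1.13, RBBP4 at -1.04, LIN52 at -0.42, LIN54 at -0.01 and LIN37 at 0.17.

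The lists of APC/C genes and of cohesin ring and loader genes had medians nearer to 0. The APC/C list held 16 measured genes, among them FZR1 and UBE2S, which are not core subunits. Of the 16, 2 (12.5%) were at least 2-fold lower in the CTNNB1 pair, against 4.14% of all genes. They were ANAPC1 (-1.80) and ANAPC7 (-1.03), and the median of the list was -0.22. In the MYC and MYU pairs their medians were -0.01 and -0.17. Of 12 cohesin ring and loader genes, 2 (16.7%) were at least 2-fold lower in the CTNNB1 pair, also against 4.14%. They were ESCO2 (-1.82), the acetyltransferase that locks cohesin on DNA in S phase, and the ring gene SMC1A (-1.24). The medians there were -0.30, -0.33 and -0.15 across the CTNNB1, MYC and MYU pairs.

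Of 30 listed centrosome and spindle pole genes 14 were measured. At least 2-fold lower in the CTNNB1 pair were 9 of these, against 4.14% of all genes, with medians of -1.14, -0.47 and -0.30 across the CTNNB1, MYC and MYU pairs. The lowest were the centriole genes SASS6 (-2.19), PLK4 (-2.07) and STIL (-1.99). In the MYC pair KIZ was the 1 gene of this list at least 1.5-fold higher (0.63). Of 21 other centromere and kinetochore genes 7 were 2-fold lower in the CTNNB1 pair, against 4.14% of all genes, and 1, CENPT (0.76), was at least 1.5-fold higher. KIZ and CENPT were named after their values were seen. The list had medians of -0.80, -0.48 and -0.12 across the CTNNB1, MYC and MYU pairs. In it HJURP, the chaperone that deposits CENPA, had -1.95 in the CTNNB1 pair, against the -0.85 of CENPA itself.

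Of 12 mitotic kinesin genes 11 were at least 2-fold lower in the CTNNB1 pair, against 4.14% of all genes, with a median of -1.72. In the MYC and MYU pairs their medians were -0.58 and -0.24. In the MYU pair 1 of the 12, KIF20B (-1.37), was at least 2-fold lower, against 0.0945% of all genes. Replication licensing and fork genes, 16 measured, had medians of -1.76, -0.90 and -0.33 across the CTNNB1, MYC and MYU pairs. In the MYC pair 13 of these 16 were at least 1.5-fold lower, against 3.63% of all genes. Whether they differ from the mitotic members was not tested. Of 12 listed brakes on cyclin-dependent kinases 3 were measured. WEE1, the kinase that holds CDK1 inactive, had values of -1.42, -0.66 and -0.35, CDKN2A had 0.00, 0.04 and -0.02, and CCNG2, a cyclin gene expressed in arrested cells, had 0.86, 0.38 and 0.30. The 3 measured genes of mitotic phosphatases and their inhibitors, ENSA, CDC14A and CDC14B, lay within 1.5-fold in all pairs.

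**Figure D4:**
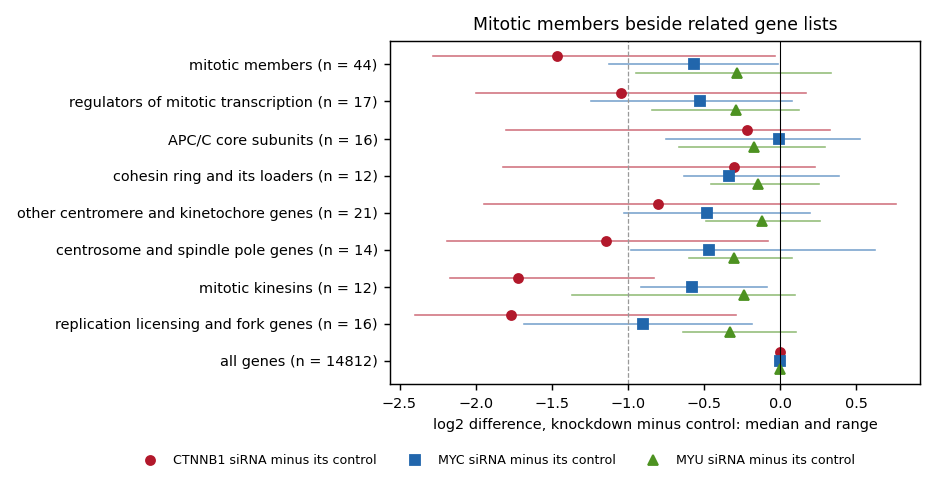
Median (symbols) and range (lines) of the log2 difference, knockdown minus control, for the mitotic members and 7 related lists, with the median of all genes at the bottom. In the CTNNB1 pair the members (-1.47) stand near kinesins (-1.72) and replication genes (-1.76). The lists marked APC/C core subunits (-0.22) and cohesin ring and its loaders (-0.30) have medians nearer to that of all genes. The APC/C list also holds FZR1 and UBE2S, which are not core subunits.

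Differences in the MYU pair went with gene length over all coding genes, with Spearman's rho of -0.17 across 11910 genes. The CTNNB1 and MYC pairs gave -0.01 and 0.02. Across the 44 members rho was -0.28 for MYU, -0.02 for CTNNB1 and 0.06 for MYC siRNA. These points share 1 pair of arrays and genes are not independent replicates. The 22 longer members (26.5 to 143 kb) had a median of -0.36 in the MYU pair, with 5 at least 1.5-fold lower against 1.21% of all genes, namely KNTC1, TRIP13, MASTL, NUSAP1 and SHCBP1. The 22 shorter members (4.05 to 26.3 kb) had a median of -0.25, with CDC25B the 1 at least 1.5-fold lower. The longest member, CENPW, had a value of -0.06. With the length trend of coding genes taken out, the members' median in the MYU pair was -0.27 in place of -0.28. This step could hardly move the median. The trend was -0.017 per doubling of length, and median lengths were 26.4 kb for members and 26.7 kb for coding genes. The part of length in single values was not tested.

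**Figure D5:**
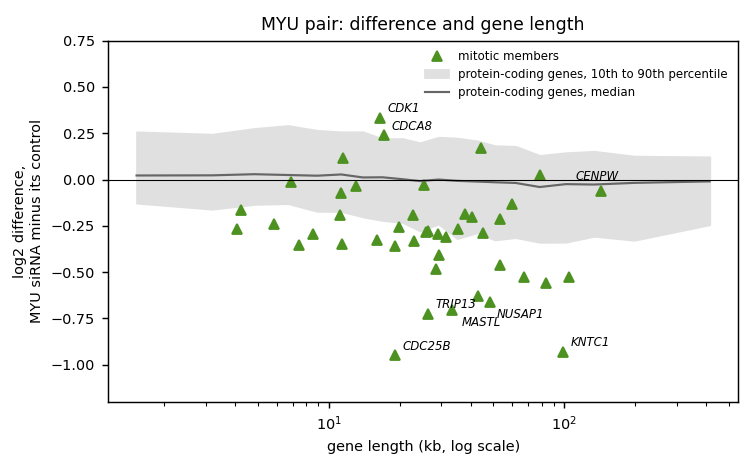
Log2 difference in the MYU pair, MYU siRNA minus its control, against gene length (kb, log scale) for the 44 mitotic members (triangles), with the median and the 10th to 90th percentile of protein-coding genes in 20 length bins. CDC25B and KNTC1 lie lowest at -0.95 and -0.93, and CDK1 highest at 0.33.

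Members with and without a CHR of either form in the first listed window had similar medians. In the CTNNB1 pair 27 members with one had a median of -1.49 and 11 without one a median of -1.55. In the MYC pair the medians were -0.58 with and -0.50 without, and in the MYU pair -0.28 with and -0.31 without. When any listed window counted, 30 members had a CHR, so some of the 11 hold one in another window. Only the 2 exact forms were searched, so members with other forms count as without one. The 25 members with CCAAT had a median of -1.61 in the CTNNB1 pair, against -1.49 for 13 without. In the MYC pair the medians were -0.60 with and -0.50 without CCAAT, and in the MYU pair -0.26 and -0.36. The 4 members with an E-box had a median of -1.72 in the CTNNB1 pair, against -1.46 for 34 without, and -0.71 against -0.54 in the MYC pair. In the MYU pair the medians were -0.23 with and -0.29 without. With so few members these are descriptions.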

How the data were processed

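Per the labels, TRIsure was used to extract total RNA, which was biotin-labelled for Affymetrix arrays. For background correction, normalization between arrays and summarisation, no source used here gives the method. Deposited values are log2 expression centred within each pair, since both arrays of a pair sum to 0 within 1e-06 at every probe set. The log base was assumed to be 2. The arrays carry no counts or depth.

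Of 44629 probe sets, 15835 are listed with 1 gene symbol, 0 with several, and 28794 are unnamed here. Identifiers were matched to the gene table of GRCh38.p14, 15835 of 15835. Knockdown minus control was computed per probe set and averaged per gene. With 1 array per group no test was run, and genes were counted at 2-fold, with 1.5-fold as an alternative, beside the same share of all genes. Lists were matched by symbol or synonym.

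The members and lists were chosen with earlier results of these data known. All members could be named, and from each list the 3 genes with the largest absolute difference in any pair. Promoter windows came from RefSeq, 250 bases before to 50 after each start. Calculations were tested on simulated data. The work used matplotlib 3.10.9, scipy 1.17.1, pandas 2.3.3 and numpy 2.4.6 in Python 3.11.15.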

Additional observations from a re-analysis of the deposited data

How the results depend on the processing

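The count of members at least 2-fold lower and the members' median were recomputed in each pair, 6 results in all, under 40 alternative values. By construction 22 of these could not move a member: each member has 1 probe set, coding genes as background alter only what the members are read against, and centring each array on its median alters nothing in the MYC and MYU pairs. Of the other 18, 12 stayed within 1.5 times (counts) or within the median spread between probe sets of a gene (medians; 0.10, 0.08 and 0.06 across the CTNNB1, MYC and MYU pairs) and 6 did not. No median changed sign. At 1.5-fold the count of lower members was 21 in place of 3 in the MYC pair and 6 in place of 0 in the MYU pair. The planned restriction to genes with a coarse rounding step kept 6 members, 5 of them 2-fold lower in the CTNNB1 pair (median -1.29) and 0 in the MYC pair, with a median of -0.17 in the MYU pair. Of all probe sets 4.32% carry the step, where 2.59% would if the pairs were independent. Leaving out PTTG1 and RACGAP1, chosen after seeing the data, was among the 12. Its counts were fixed too, since neither gene was 2-fold lower in any pair. The 6 members with the coarse step could not include 36 lower ones in the CTNNB1 pair, and no subset could alter the count of 0 in the MYU pair. Taking out the length trend, also among the 12, could hardly move the median. The tally of 12 and 6 is therefore no measure of how stable the results are. A filter on levels was not run, since the values hold none, and with 1 array per group none could be left out. No paired analysis was possible because each group has 1 array and the pairing already defines the difference.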
